A study of Mus musculus with 12 samples.

Results

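The genes described here are 35 genes of protein folding in the endoplasmic reticulum (ER) and of the unfolded protein response, chosen by name from the 30265 gene symbols of the table. They are 7 sensors and transcription factors, 11 chaperones and co-chaperones, 4 protein disulfide isomerases, 8 genes of ER-associated degradation and 5 genes of the translocon. All 35 of 35 passed the filter on low values (10 or more normalised reads in 3 or more libraries), as did 16577 genes in all. The cells were intestinal epithelial cells of C57Bl/6 mice that carry a Sox9-GFP reporter, a transgene whose fluorescence reports Sox9. They were sorted into Sox9 High, Sox9 Sublow, Sox9 Negative and Sox9 Low populations, with 3 RNA sequencing libraries for each and 12000 cells for a library. The replicates carry the letters A, B and C, and nothing in the labels gives the meaning of a letter or ties the replicates to separate mice. P-values here therefore measure the spread between these libraries, which may be technical.

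Secreted and membrane proteins enter the ER through the translocon, fold with the help of chaperones and disulfide isomerases, and are sent back to the cytosol for destruction when they fail to fold. Unfolded proteins are sensed by IRE1, PERK and ATF6, and the factors made or freed by these sensors (spliced XBP1, ATF4, cleaved ATF6) raise the genes for folding and degradation. Goblet and Paneth cells of the intestine secrete large amounts of mucin and antimicrobial protein, and absorptive enterocytes export lipoproteins, so all of these cells depend on ER folding.

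The libraries held 11630042 to 17046944 reads assigned to genes. The deposited values are read counts divided by 1 size factor for each library, called normalised reads below, and a floor of 3 reads corresponds to 2.38 to 4.61 normalised reads. Sox9 averaged 20262 normalised reads in High, 2084 in Sublow, 604 in Negative and 6601 in Low (n = 3 each), which follows the names of the sort gates. Summed goblet markers (11 of 11 tested) ranged over 7816–11404 normalised reads in High, 344030–597460 in Sublow, 52546–111780 in Negative and 144080–489300 in Low. Summed enterocyte markers (10 of 10) ranged over 46124–60439 in High, 87649–537170 in Sublow, 664300–1017400 in Negative and 22944–57955 in Low. Summed Paneth markers (10 of 10) ranged over 535–4910 in High, 13502–19639 in Sublow, 51769–138660 in Negative and 20200–49052 in Low. Tuft markers (10 of 10) summed to 118580–123120 in High and to at most 577 in Sublow and 241 in Negative, with 9419–16340 in Low. Enteroendocrine markers (12 of 12) summed to 399200–603270 in High, 2295–6634 in Sublow, 511–1495 in Negative and 41189–79791 in Low. Summed stem cell markers (7 of 7) ranged over 6572–14610 in High, 16327–59235 in Sublow, 2064–9274 in Negative and 99297–127160 in Low, and cycling markers (7 of 7) over 2531–4660.5 in High, 20161–36140 in Sublow, 3316–10988 in Negative and 36850–39182 in Low. Other leukocyte markers (9 of 9) summed to 2106–3478 in High, 214–304 in Sublow, 241–297 in Negative and 265–346 in Low. By gene they went both ways. Between High and Low 2 of the 9 rose and 2 fell (all genes 23.6% and 19.3%), and 5 were not called. Between High and Sublow 3 rose and 2 fell (26.7% and 25.3%). Of 12 plasma and B cell markers 3 passed the filter, and the list summed to 242–318 in High, 1413–1549 in Sublow, 1328–1459 in Negative and 1066–1407 in Low. Most of that sum was Sdc1, which averaged 212 in High, 1330.4 in Sublow, 1190 in Negative and 1177 in Low, whereas the defining genes Jchain, Igkc and Mzb1 stayed at or below 7.39 in every library. Mitochondrial genes took 1.37% to 1.61% of reads in High, 3.10% to 3.98% in Sublow, 4.19% to 5.08% in Negative and 2.53% to 3.31% in Low. The part of these cell types and of the mitochondrial share in the results below was not tested, and in sorted bulk samples fewer cells of a type and less RNA per cell cannot be told apart.

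On the authors' scale many of the ER genes were higher in Sublow and Negative cells than in Low and High cells, and 49 of the 87 calls made for these genes over 6 comparisons were lost when every library was scaled to the same total. The factor Creb3l3, the disulfide isomerase P4hb and the degradation gene Edem1 were highest by mean in Negative and kept their differences from High and Low on either scale. Ern2, the epithelial IRE1, was instead highest by mean in Sublow and lowest in High. Between Negative and Low, 18 of the 35 genes rose and 1 fell at an adjusted p below 0.05, while 26.8% of all genes tested rose and 30.3% fell. Between Sublow and Low, 14 rose and 0 fell, against 13.3% and 10.7% of all genes. Between High and Negative, 2 rose and 18 fell, against 28.8% and 25.8%. Between High and Sublow, 2 rose and 21 fell, against 26.7% and 25.3%. Between High and Low, 3 rose and 3 fell, against 23.6% and 19.3%. Between Sublow and Negative, 1 rose and 4 fell, against 15.1% and 12.7%. A test for any difference among the 4 populations (limma F test) called 24 of the 35 genes, and it called 69.5% of all genes.

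The median log2 difference of the 35 genes was 0.60 between Negative and Low, where the median of all genes was -0.05, and 31 of the 35 lay above that median. It was 0.57 between Sublow and Low, where all genes had a median of -0.06 and 35 of 35 lay above it. It was -0.64 between High and Negative (all genes 0.03) and -0.54 between High and Sublow (all genes 0.03). Between High and Low it was -0.01, against 0.10 for all genes, and between Sublow and Negative it was -0.10, against -0.04.

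Counts of calls depended on how the libraries were scaled. The authors' size factors leave the libraries with unequal sums of normalised reads, which were 13316800 to 13411400 in High, 14540900 to 16635900 in Sublow, 17445800 to 20592100 in Negative and 12343300 to 13150500 in Low. When all libraries were scaled to the same total, the median of all genes moved on the log2 scale. The shift was -0.07 in High, -0.27 in Sublow and -0.55 in Negative, each relative to Low. It was 0.48 in High and 0.28 in Sublow relative to Negative, and 0.20 in High relative to Sublow. On that scale 6 of the 35 genes rose and 4 fell between Negative and Low (all genes 14.7% and 48.6%), and 4 rose and 0 fell between Sublow and Low (7.88% and 19.7%). Likewise 3 rose and 6 fell between High and Negative (44.8% and 15.6%), and 2 rose and 10 fell between High and Sublow (32.8% and 19.1%). Between Sublow and Negative 3 rose and 1 fell (23.1% and 3.68%), and between High and Low 2 rose and 3 fell (21.3% and 20.5%). With edgeR, which scales by TMM, 18 genes rose and 1 fell between Negative and Low, and 15 rose and 0 fell between Sublow and Low. It called 2 higher and 18 lower between High and Negative, and 2 higher and 21 lower between High and Sublow. Of the 87 calls made for single genes over the 6 comparisons, 34 held under every alternative, and 57 held under all but the same-total scaling. The genes below are given on the authors' scale.

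**Figure D1:**
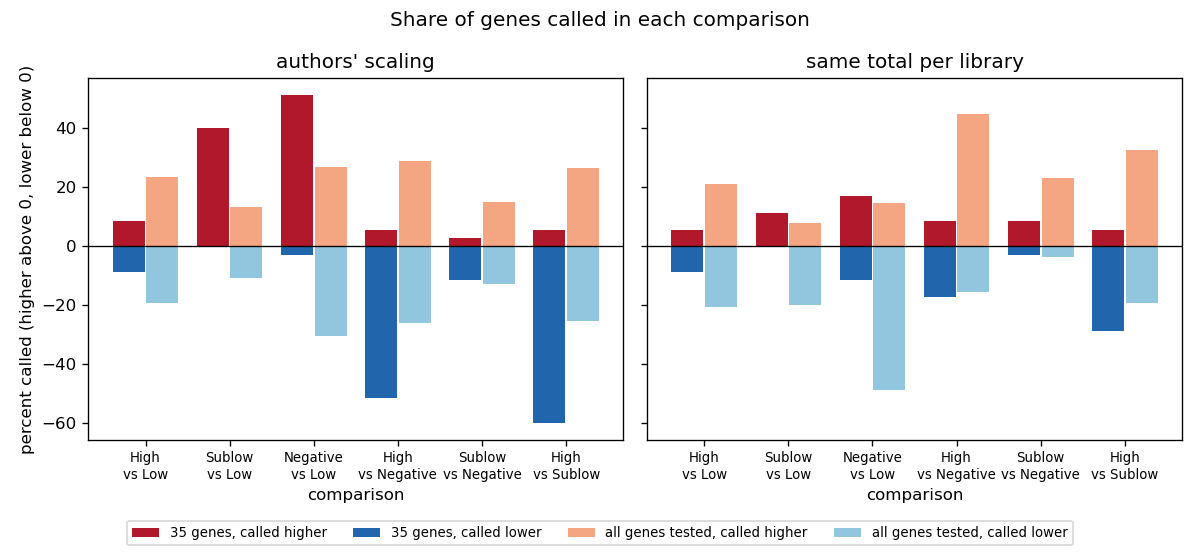
Percent of genes called higher or lower (adjusted p below 0.05) in each of the 6 comparisons, for the 35 ER genes and for all 16577 genes tested, under the authors' scaling and with every library scaled to the same total. Under the authors' scaling 18 ER genes were called lower in High than in Negative and 21 lower than in Sublow, and at the same total the counts were 6 and 10.

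**Figure D2:**
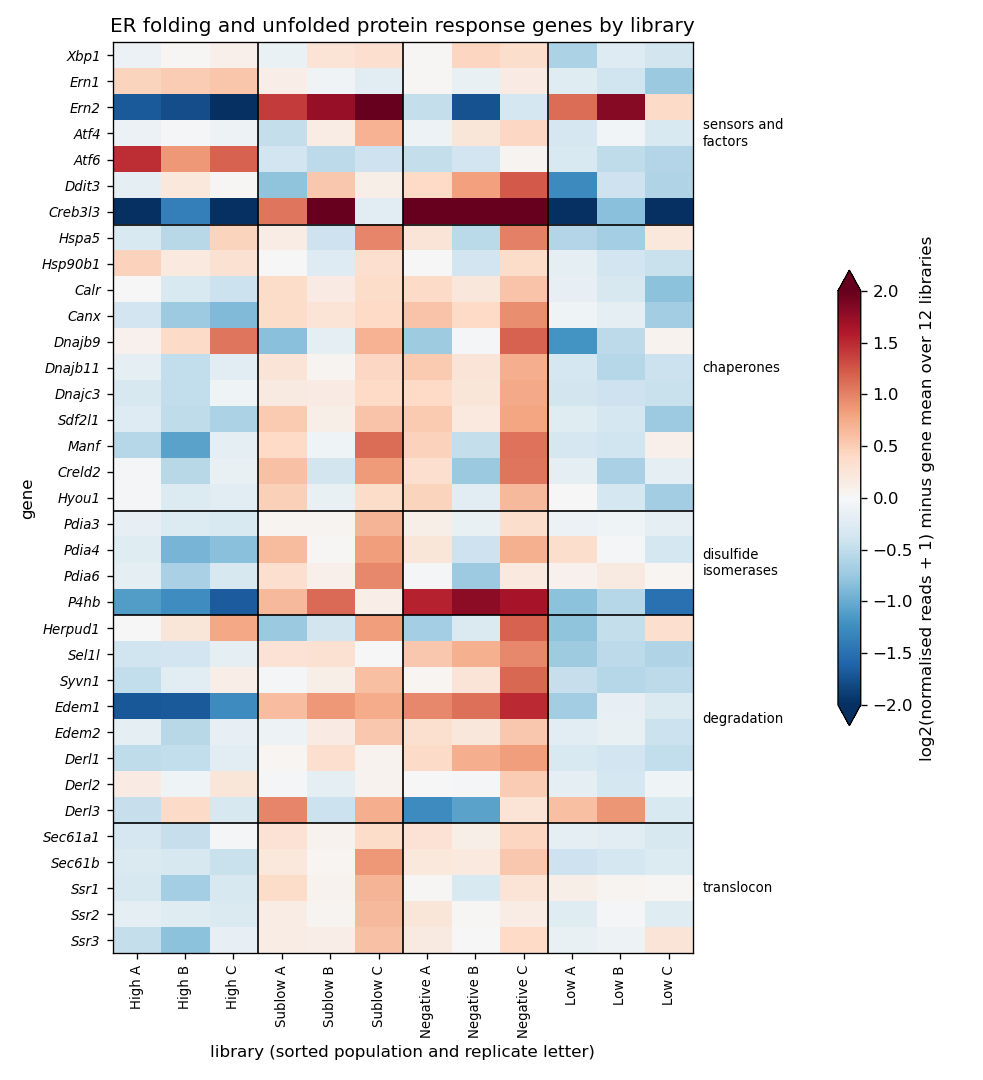
Each cell is log2(normalised reads + 1) of 1 of the 35 genes in 1 of the 12 libraries minus the mean of that gene over the libraries, with colours limited to ±2. Rows are grouped by role and columns by population. Creb3l3, P4hb and Edem1 are high in the 3 Negative libraries and low in the 3 High libraries, and Ern1 and Atf6 are high in High.

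Of the sensors and transcription factors, Atf6 and Ern1 were highest in High cells, Creb3l3 was highest in Negative cells, Ern2 was low in both High and Negative cells, Ddit3 was higher in Negative than in Low, and Xbp1 and Atf4 varied least of the 7 by population means. In this group of 7, 2 rose and 1 fell between High and Low, 2 rose between Sublow and Low, and 4 rose and 1 fell between Negative and Low. At the same total these counts were 2 and 1, then 1 and 0, then 2 and 1.

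Atf6 (chr1:170704674-170867771 in GRCm38) encodes the membrane-bound factor that is cut in the Golgi when unfolded protein accumulates. It had 4999, 3289.5 and 4069.9 normalised reads in the High libraries A, B and C, 1378, 1257 and 1359 in Sublow, 1299.9, 1389 and 1875 in Negative, and 1459, 1269 and 1206 in Low. All 3 High libraries lay above the other 9, whose ranges overlapped. Atf6 rose 3.10-fold in High relative to Low (log2 difference 1.63 ± 0.17 SE, adjusted p = 2.07e-05, limma), 2.70-fold relative to Negative (adjusted p = 1.6e-05) and 3.05-fold relative to Sublow (adjusted p = 9.19e-06). These calls held under every alternative.

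Ern1 (chr11:106394650-106487852) encodes IRE1α, the sensor that splices Xbp1 RNA and is found in most cell types. It had 2043, 2114 and 2187 normalised reads in High, 1639, 1429 and 1281 in Sublow, 1519.6, 1339 and 1677 in Negative, and 1261, 1127 and 889 in Low. High lay above every other library, Low lay below every other library, and Sublow and Negative overlapped. Ern1 rose 1.95-fold in High relative to Low (log2 difference 0.97 ± 0.15, adjusted p = 0.00029), 1.47-fold relative to Sublow (adjusted p = 0.0082) and 1.40-fold relative to Negative (adjusted p = 0.0145). The difference from Negative was no longer called when Negative replicate B was left out (adjusted p = 0.0624). Ern1 also rose 1.39-fold in Negative relative to Low (adjusted p = 0.016), but this call was lost without Negative replicate C (adjusted p = 0.065) or Low replicate C (adjusted p = 0.0715), and at the same total the difference turned to -0.08 (adjusted p = 0.689). Higher in High than in each of the other populations were Ern1 and Atf6 alone among the 35 genes, and 15.6% of all genes.

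Ern2 (chr7:122169893-122186207) encodes IRE1β, the paralog that is confined to epithelia of the gut and airway and is found in goblet cells. It had 115, 108 and 60.8 normalised reads in High, 985, 1242 and 1643 in Sublow, 267, 111 and 292 in Negative, and 805, 1311 and 483 in Low. The Sublow and Low libraries overlapped and lay above all High and Negative libraries, and High and Negative overlapped at 111 and 115. Ern2 fell 13.7-fold in High relative to Sublow (log2 difference -3.78 ± 0.42, adjusted p = 1.21e-05), 8.70-fold in High relative to Low (-3.12 ± 0.42, adjusted p = 0.00011) and 3.88-fold in Negative relative to Low (-1.96 ± 0.42, adjusted p = 0.00167). It was 6.12-fold higher in Sublow than in Negative (adjusted p = 0.00289), a difference that missed the threshold in a fit of those 6 libraries alone (adjusted p = 0.053). The 2.24-fold difference between High and Negative (adjusted p = 0.0323) was lost at the same total and without High replicate C (adjusted p = 0.132), Negative replicate A (0.108) or Negative replicate C (0.124). The order of Ern2 over the populations, with Sublow first and High last, was also that of the summed goblet markers given above, and their part in it was not tested.

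Creb3l3 (chr10:81084324-81098874) encodes CREB-H, an ER-bound factor of liver and intestine that is cut in the Golgi as ATF6 is and acts on lipid metabolism. It had 310.3, 509.6 and 200.2 normalised reads in High, 2757, 6812 and 1141 in Sublow, 7839, 11961 and 9478 in Negative, and 221, 732 and 267 in Low. Negative lay above all other libraries, Sublow lay above High and Low, and the last 2 overlapped. Creb3l3 rose 27.3-fold in Negative relative to Low (log2 difference 4.77 ± 0.59, adjusted p = 3.49e-05) and 7.89-fold in Sublow relative to Low (2.98 ± 0.59, adjusted p = 0.00378). In High it fell 30.3-fold relative to Negative (-4.92 ± 0.59, adjusted p = 1.5e-05) and 8.75-fold relative to Sublow (-3.13 ± 0.59, adjusted p = 0.000749). These 4 calls held under every alternative. The 3.46-fold difference between Sublow and Negative (adjusted p = 0.0409) did not: scaling to the same total gave an adjusted p of 0.0649, edgeR gave 0.103, DESeq2 gave 0.0959, and leaving out Sublow replicate C gave 0.163. Leaving out Sublow replicate A (0.0895), any of the Negative replicates (0.0579 to 0.128), High replicate A (0.0554) or Low replicate C (0.0504) also ended that call. Within Sublow the Creb3l3 values had the order of the summed enterocyte markers, which were 264670, 537170 and 87649 in replicates A, B and C. The summed stem cell and cycling markers had the reverse order, and the part of these cell types was not tested.

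Xbp1 encodes the factor that IRE1 activates by splicing its RNA, and the table does not separate its spliced form. It had 2099, 2322 and 2439.6 normalised reads in High, 2079, 2749 and 2871 in Sublow, 2310.5, 3077 and 2908 in Negative, and 1466, 1907 and 1774 in Low. The Low libraries lay below all the others. Xbp1 rose 1.61-fold in Negative relative to Low (log2 difference 0.69 ± 0.16, adjusted p = 0.00309) and 1.49-fold in Sublow relative to Low (0.57 ± 0.16, adjusted p = 0.0225). Both calls were lost at the same total, and that of Sublow also without Sublow replicate B (adjusted p = 0.0773) or Low replicate A (adjusted p = 0.0997).

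Ddit3 encodes CHOP, a factor of the late stress response that promotes cell death. It had 262, 344 and 302 normalised reads in High, 169, 433 and 322 in Sublow, 392, 524 and 697 in Negative, and 122, 223 and 195 in Low. Negative lay above High and Low, and Sublow overlapped each of the other populations. Ddit3 rose 2.99-fold in Negative relative to Low (log2 difference 1.58 ± 0.33, adjusted p = 0.00148), which held under every alternative. Atf4, translated when PERK phosphorylates eIF2α, had 2501, 2692 and 2549 normalised reads in High, 1966, 3029.8 and 4424 in Sublow, 2541, 3216 and 3644 in Negative, and 2154, 2628 and 2217 in Low. All 4 populations overlapped with each other, and no comparison of Atf4 passed the test (adjusted p of the F test = 0.363). Atf4 is controlled mainly at translation, which RNA levels do not report.

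**Figure D3:**
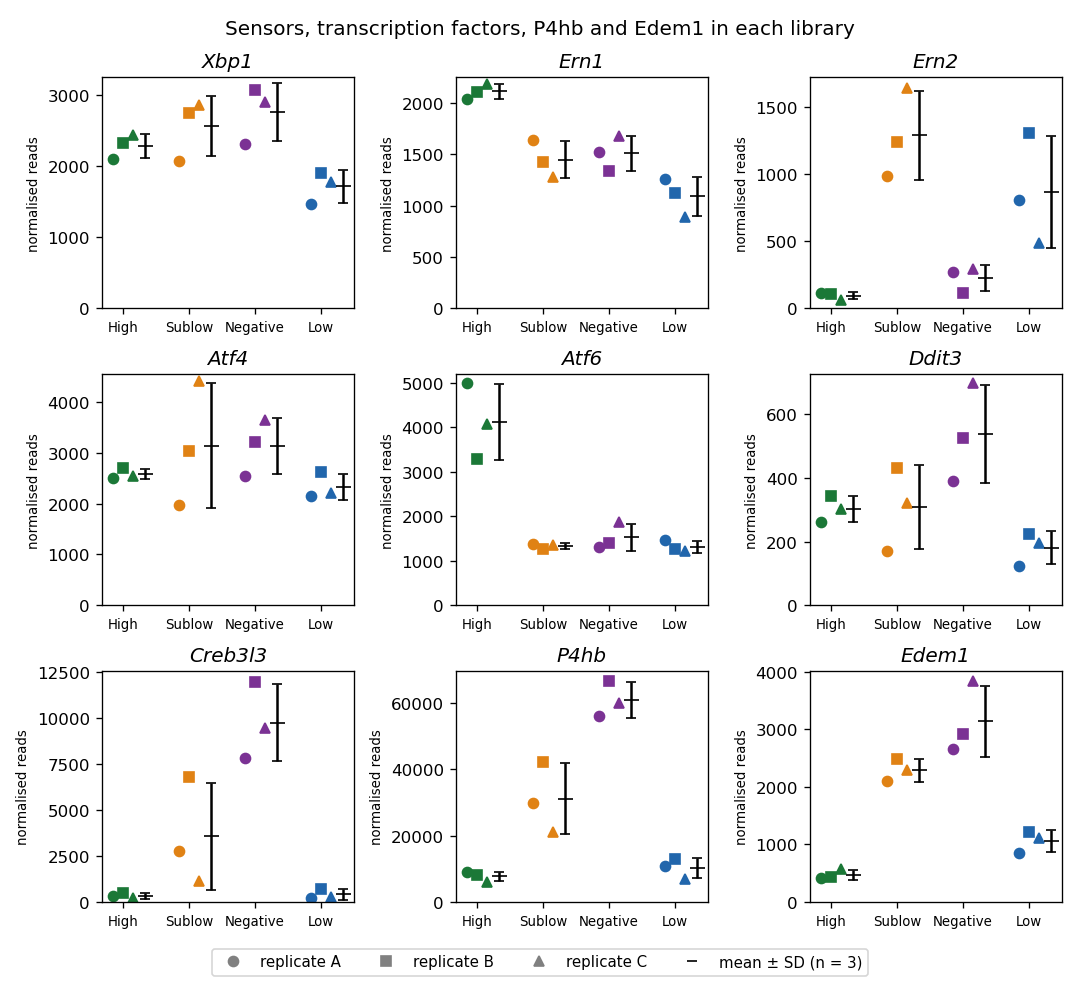
Normalised reads of 9 genes in each of the 12 libraries, with the mean ± SD of the 3 libraries of each population. Ern1 and Atf6 peak in High, Ern2 is lowest in High and Negative, and Creb3l3, P4hb and Edem1 peak in Negative, where P4hb reached 56123 to 66664 normalised reads.

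The chaperones were higher in Negative and Sublow cells than in Low cells on the authors' scale, and by no more than 1.94-fold among those that passed. Of the 11, 6 rose between Negative and Low (Calr, Canx, Dnajb11, Dnajc3, Sdf2l1 and Hyou1), and 5 of these, all but Hyou1, rose between Sublow and Low. At the same total 0 of 11 rose or fell in either comparison. Against Negative, 6 of 11 fell in High, and at the same total 1 fell and 1 rose.

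Canx, the membrane-bound lectin chaperone calnexin, had 11110, 8773 and 7896 normalised reads in High, 18652, 17549 and 19231 in Sublow, 21620, 19194 and 27589 in Negative, and 13715, 12742 and 9006 in Low. High and Low overlapped, as did Sublow and Negative, and the first pair of populations lay below the second. Canx fell 2.46-fold in High relative to Negative (log2 difference -1.30 ± 0.20, adjusted p = 0.000104) and 2.02-fold relative to Sublow (-1.01 ± 0.20, adjusted p = 0.000909), and both calls held under every alternative. It rose 1.94-fold in Negative relative to Low (0.95 ± 0.20, adjusted p = 0.00119) and 1.59-fold in Sublow relative to Low (0.67 ± 0.20, adjusted p = 0.0271). The call between Negative and Low was lost at the same total. That between Sublow and Low was lost there too, and without Low replicate C (adjusted p = 0.111), Sublow replicate A (0.0675) or Sublow replicate B (0.0525). Calr, the soluble lectin chaperone calreticulin, averaged 12547 ± 1977 normalised reads in High, 18224 ± 1454 in Sublow, 19531 ± 2277 in Negative and 11150 ± 2490 in Low (SD, n = 3 each).

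Dnajb11 and Sdf2l1, co-factors of the chaperone BiP, varied in the same order. Dnajb11 had 1275, 1021 and 1243 normalised reads in High, 1722, 1489 and 1924 in Sublow, 2060.3, 1716 and 2391 in Negative, and 1133, 970.3 and 1067 in Low. It rose 1.93-fold in Negative relative to Low (log2 difference 0.95 ± 0.15, adjusted p = 0.000216), a call lost at the same total alone among the alternatives. Sdf2l1 had 263, 222 and 204 normalised reads in High, 451, 341 and 469 in Sublow, 454, 359.9 and 545 in Negative, and 266, 246 and 190.2 in Low. High and Low overlapped and lay below all Sublow and Negative libraries for both genes. Sdf2l1 fell 1.82-fold in High relative to Sublow (-0.86 ± 0.20, adjusted p = 0.00327), which held under every alternative.

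Hsp90b1, the ER-resident HSP90 called GRP94, was instead highest by mean in High cells. It averaged 25483 ± 2325 normalised reads in High, 21049 ± 4340 in Sublow, 20919 ± 5430 in Negative and 16185 ± 1490 in Low (SD, n = 3 each). It rose 1.57-fold in High relative to Low (log2 difference 0.65 ± 0.20, adjusted p = 0.021). The call was lost at the same total and without High replicate A (adjusted p = 0.0768), High replicate C (0.0514), Low replicate B (0.0594) or Low replicate C (0.0665). On the authors' scale Hsp90b1 was not called between High and Sublow or between High and Negative. At the same total it was called higher in High than in Negative (log2 difference 0.80, adjusted p = 0.01, limma). The exons of Hsp90b1 share 10.3% of their bases with a transcribed pseudogene on the opposite strand, and whether the counting used strand is not given in the sources used here.

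Manf, a secreted survival factor held in the ER by BiP, had 752, 529 and 977 normalised reads in High, 1465, 1051 and 2424 in Sublow, 1539, 798 and 2362 in Negative, and 880.2, 849.5 and 1193 in Low. High lay below Sublow and overlapped Negative and Low. Manf fell 2.12-fold in High relative to Sublow (log2 difference -1.09 ± 0.38, adjusted p = 0.0312) and 1.95-fold relative to Negative (-0.97 ± 0.38, adjusted p = 0.0493). The call against Sublow was lost at the same total and without High replicate A (adjusted p = 0.0632), High replicate B (0.12), Sublow replicate A (0.0594) or Sublow replicate C (0.122). The call against Negative was lost in 12 of its alternatives, with 0.211 without Negative replicate C as the highest adjusted p among the libraries left out. Hspa5 (BiP), Dnajb9 (ERdj4) and Creld2 passed in no comparison of populations in the fit that leaves the replicate letter out.

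Among the disulfide isomerases P4hb stood apart in level and in spread. P4hb (chr11:120560298-120573253) encodes PDI, which is also the small subunit of the microsomal triglyceride transfer protein of enterocytes and the beta subunit of collagen prolyl 4-hydroxylase. It had 8917, 8132 and 6084 normalised reads in High, 30031, 42353 and 21226 in Sublow, 56123, 66664 and 60133 in Negative, and 10905, 13036 and 6817 in Low. The Negative libraries lay above all the others, Sublow lay between, and High and Low overlapped. P4hb rose 6.15-fold in Negative relative to Low (log2 difference 2.62 ± 0.28, adjusted p = 1.38e-05) and 3.03-fold in Sublow relative to Low (1.60 ± 0.28, adjusted p = 0.00188). It fell 7.99-fold in High relative to Negative (-3.00 ± 0.28, adjusted p = 1.61e-06) and 3.94-fold in High relative to Sublow (-1.98 ± 0.28, adjusted p = 7.72e-05), and these 4 calls held under every alternative. The 2.03-fold difference between Sublow and Negative (adjusted p = 0.02) was lost without Sublow replicate A (adjusted p = 0.0522), Sublow replicate C (0.0753) or Negative replicate B (0.0736). Within Sublow, P4hb was highest in replicate B and lowest in replicate C, as the summed enterocyte markers were. The summed stem cell and cycling markers ran in the reverse order there, and the part of these cell types was not tested.

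The other 3 disulfide isomerases were highest in Sublow by their means. Pdia4 had 3803, 2365 and 2515 normalised reads in High, 6932, 4583 and 7991 in Sublow, 5319, 3349 and 7320 in Negative, and 5736, 4418 and 3505 in Low. Its High libraries lay below Sublow and overlapped Negative and Low. Pdia4 fell 2.24-fold in High relative to Sublow (log2 difference -1.16 ± 0.30, adjusted p = 0.00663), which held under every alternative. Its 1.79-fold difference between High and Negative (adjusted p = 0.0326) was lost at the same total and without High replicate B (adjusted p = 0.111), High replicate C (0.0982), Negative replicate A (0.0779) or Negative replicate C (0.144). Pdia6 averaged 1723 ± 271 in High, 3192 ± 1023 in Sublow, 2031 ± 617 in Negative and 2393 ± 130.4 in Low. Pdia3, the partner of calnexin and calreticulin, averaged 6741 ± 355 in High, 9787 ± 2557 in Sublow, 8706 ± 1494 in Negative and 7345 ± 257 in Low (SD, n = 3 each). All 4 isomerases fell in High relative to Sublow, and at the same total 2 of 4 did, P4hb and Pdia4.

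Of the ER-associated degradation genes, 5 of 8 were higher in Negative than in Low, and at the same total 3 were higher and 1 lower (Derl3, log2 difference -1.58, adjusted p = 0.0241). Edem1 (chr6:108828641-108859356), a lectin that takes misfolded glycoproteins to degradation, had 421, 427 and 567 normalised reads in High, 2092, 2486 and 2287 in Sublow, 2656, 2917 and 3835 in Negative, and 844, 1211 and 1117 in Low. No library of Edem1 overlapped another population. It fell 6.62-fold in High relative to Negative (log2 difference -2.73 ± 0.18, adjusted p = 1.14e-07), 4.88-fold relative to Sublow (-2.29 ± 0.18, adjusted p = 8.45e-07) and 2.23-fold relative to Low (-1.16 ± 0.18, adjusted p = 0.000319). Edem1 rose 2.96-fold in Negative relative to Low (1.57 ± 0.18, adjusted p = 2.39e-05) and 2.18-fold in Sublow relative to Low (1.13 ± 0.18, adjusted p = 0.00137). All 5 calls held under every alternative, while Sublow against Negative was not called. Lower in High than in each of the other populations were Edem1 and Ern2 among the 35 genes, against 8.84% of all genes, and at the same total Edem1 alone.

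Sel1l and Syvn1 encode the scaffold and the ubiquitin ligase of the main degradation complex. Sel1l had 2408, 2428 and 2768 normalised reads in High, 3881, 3949 and 3169.6 in Sublow, 4625, 5226 and 6209.8 in Negative, and 1946, 2224 and 2096 in Low. The populations did not overlap, in the order Negative, Sublow, High and Low. Sel1l rose 2.55-fold in Negative relative to Low (log2 difference 1.35 ± 0.14, adjusted p = 1.2e-05) and 1.75-fold in Sublow relative to Low (0.81 ± 0.14, adjusted p = 0.00187), and fell 2.10-fold in High relative to Negative (-1.07 ± 0.14, adjusted p = 3e-05), all under every alternative. It fell 1.44-fold in High relative to Sublow (adjusted p = 0.00682), a call lost at the same total. Syvn1 had 641, 777 and 992 normalised reads in High, 885, 979 and 1366 in Sublow, 926, 1075 and 2006 in Negative, and 657, 609 and 627 in Low. High overlapped each of the other populations, and Low lay below Sublow and Negative. Syvn1 rose in Negative relative to Low, with a mean of 1336 ± 585 in Negative and 631 ± 24.2 in Low (adjusted p = 0.00652), and the call was lost at the same total.

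Derl1 and Derl3 belong to the derlin family of channel proteins. Derl1 had 747, 754 and 908 normalised reads in High, 1088, 1335 and 1105 in Sublow, 1386, 1750 and 1883 in Negative, and 858, 807 and 749 in Low. Negative lay above Sublow, and Sublow above High and Low, which overlapped. Derl1 rose 2.06-fold in Negative relative to Low (log2 difference 1.04 ± 0.15, adjusted p = 8.25e-05), and fell in High 2.07-fold relative to Negative (-1.05 ± 0.15, adjusted p = 5.44e-05) and 1.46-fold relative to Sublow (-0.55 ± 0.15, adjusted p = 0.00739), all under every alternative. Derl3 had 9.92, 18.4 and 11 normalised reads in High, 28.6, 10.1 and 23.7 in Sublow, 5.28, 6.15 and 17.1 in Negative, and 21.8, 26.5 and 11.1 in Low. These values are few reads above the floor, the populations overlapped, and no comparison of Derl3 passed on the authors' scale. Edem2 averaged 377 ± 55.7 in High, 539.7 ± 120.4 in Sublow, 596 ± 66.9 in Negative and 385 ± 38.4 in Low, and Derl2 had population means from 343 to 448 (SD, n = 3 each).

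Creb3l3, P4hb, Sel1l and Derl1 were called higher in Negative than in each of the other 3 populations, against 9.33% of all genes. This set of 4 rests on the comparison of Sublow with Negative, which made 5 calls among the 35 genes: 1 of the 4 was left without Sublow replicate A or Negative replicate C, 0 were left without Sublow replicate C or Negative replicate B, and P4hb alone was left at the same total. None of the 35 was highest or lowest in Sublow, where 0.0603% and 0.199% of all genes were. None was lowest in Negative (8.2% of all genes), highest in Low (1.1%) or lowest in Low (2.78%). The last count became 3 with a term for the replicate letter, and 1 with edgeR, DESeq2 or a mean of at least 50.

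The translocon genes differed by at most 1.75-fold where a call was made. Sec61a1 encodes the channel itself and Sec61b its small subunit, and Ssr1, Ssr2 and Ssr3 encode the TRAP complex beside it. Sec61a1 averaged 2317 ± 371 normalised reads in High, 3297 ± 347 in Sublow, 3368 ± 367 in Negative and 2344 ± 99.7 in Low, and Ssr1 averaged 2279.9 ± 314 in High, 4026 ± 855 in Sublow, 3103 ± 615 in Negative and 3212 ± 104 in Low (SD, n = 3 each). All 5 fell in High relative to Sublow, by 1.43-fold to 1.75-fold, and at the same total 2 of 5 did, Ssr1 and Ssr3. Sec61a1, Sec61b and Ssr2 rose in Sublow relative to Low and Sec61a1 and Sec61b in Negative relative to Low, and at the same total 0 of 5 rose and 1 fell in Negative (Ssr1, log2 difference -0.63, adjusted p = 0.0228). The difference of Sec61a1 between Negative and Low turned to -0.04 at the same total (adjusted p = 0.84). Ssr1 fell 1.42-fold in High relative to Low (-0.50 ± 0.18, adjusted p = 0.0413), a call that edgeR did not make (adjusted p = 0.0611) and that 8 of the 12 fits without a library lost, with 0.161 without High replicate B as the highest adjusted p. The rise of Ssr2 in Sublow (1.38-fold, adjusted p = 0.0456) was lost without any library but Sublow replicate B, with an adjusted p of up to 0.136. Exons of Ssr2 share 12.8% of their bases with a processed pseudogene on the opposite strand, and those of Sec61a1 share 8.16% with an antisense gene.

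**Figure D4:**
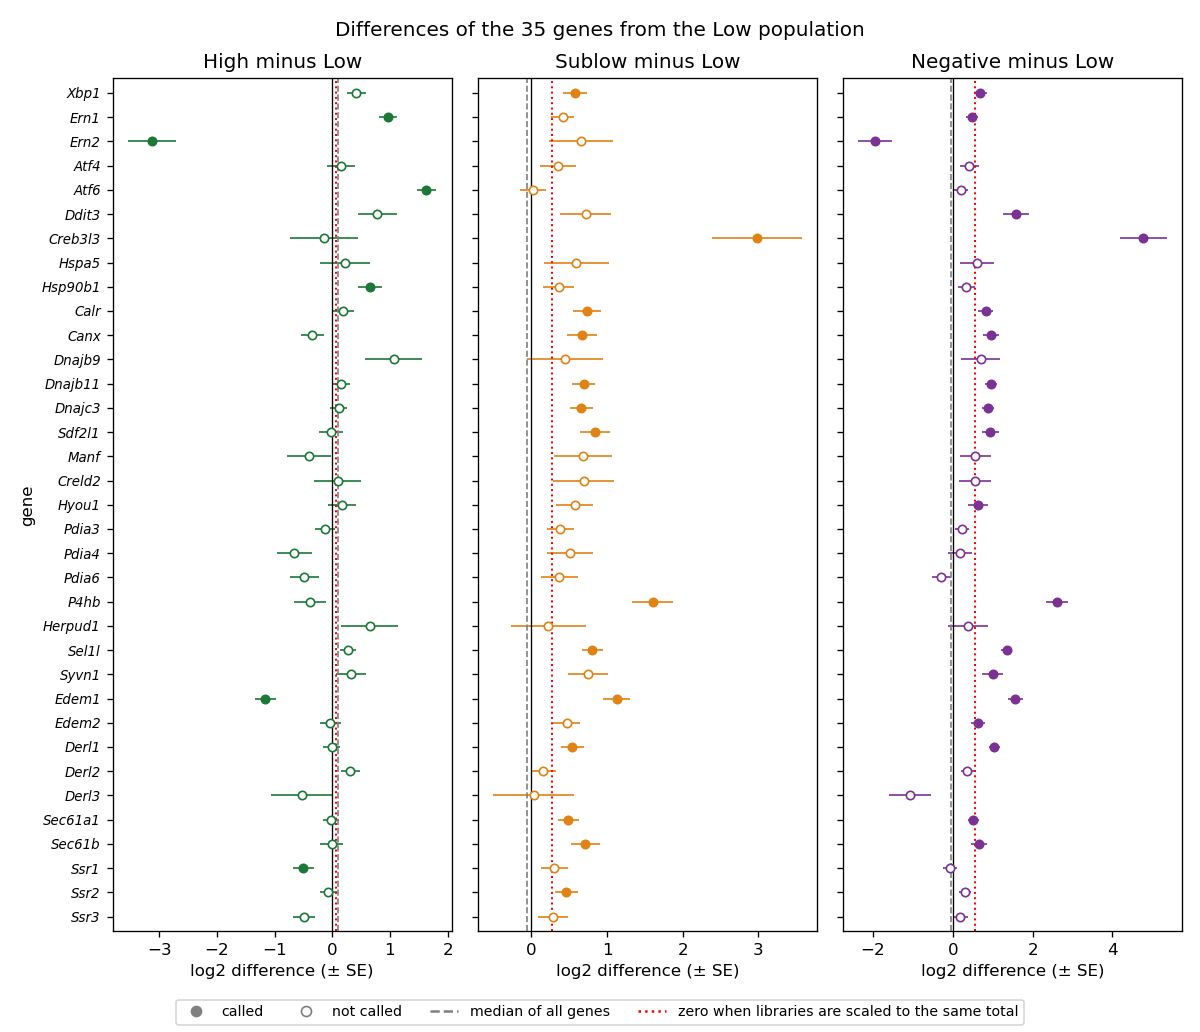
Log2 difference from Low (± SE, limma) of the 35 genes in High, Sublow and Negative, with filled points for an adjusted p below 0.05. The grey dashed line is the median of all genes and the red dotted line is where zero lies when the libraries are scaled to the same total. Creb3l3 (4.77) and P4hb (2.62) lie farthest to the right in Negative, and Ern2 (-3.12) lies farthest to the left in High.

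Summed over the 35 genes, ER folding took 0.839% ± 0.0637 of all normalised reads in High, 1.12% ± 0.124 in Sublow, 1.14% ± 0.205 in Negative and 0.818% ± 0.0436 in Low (SD, n = 3 each). P4hb alone took 0.0577% in High, 0.201% in Sublow, 0.324% in Negative and 0.0801% in Low. Without P4hb the shares were 0.782% ± 0.0641 in High, 0.915% ± 0.180 in Sublow, 0.813% ± 0.203 in Negative and 0.738% ± 0.0347 in Low, so that the SDs of Negative spanned the means of High and Low. The chaperones took 0.494% in High, 0.547% in Sublow, 0.486% in Negative and 0.437% in Low, with SDs of 0.0462, 0.125, 0.144 and 0.0344 percentage points in that order. The disulfide isomerases took 0.143% ± 0.0185 in High, 0.329% ± 0.0187 in Sublow, 0.411% ± 0.0274 in Negative and 0.192% ± 0.0287 in Low. In this sum Negative lay above Sublow, and Sublow lay above High and Low, whose libraries overlapped. P4hb made up most of the sum in Negative (0.324% of 0.411%) and in Sublow (0.201% of 0.329%). The other 3 isomerases were each highest by mean in Sublow, so the order of the sum is not theirs.

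Per kilobase of exon (GENCODE M21, GRCm38), P4hb also had the highest mean level over the 12 libraries, at 9624 normalised reads per kilobase, ahead of Calr (5334), Hsp90b1 (5186), Canx (3322) and Hspa5 (2683). In High cells the order was different, with 6320 for Hsp90b1, 4356 for Calr and 2695 for P4hb, while P4hb had 21312 in Negative, 10906 in Sublow and 3584 in Low. Derl3 had the lowest level of the 35 genes, at 7.93 per kilobase, below Derl2 at 49.8. Ern1 stood at 259 per kilobase in High, 177 in Sublow, 185 in Negative and 134 in Low, and its paralog Ern2 at 31.8 in High, 435 in Sublow, 75.4 in Negative and 292 in Low. By these means Ern2 exceeded Ern1 in Sublow and Low and stayed below it in High and Negative.

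The promoters of several of these genes hold the ER stress response element (ERSE), a sequence bound by NF-Y at its first letters and by ATF6 or XBP1 at its last. RefSeq promoter windows (GRCm38.p6, from 250 bases before to 50 after the start) were matched for 28 of the 35 genes. The ERSE, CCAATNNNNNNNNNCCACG read on both strands, was found in 9 of these 28 and in 0.137% of 27025 genes with such a window. The related ERSE-II, the letters ATTGG and CCACG with any 1 base between them, was found in 2 of the 28 and in 0.0444% of all. The sites are shown because 11 of the 28 genes hold an ERSE or an ERSE-II, and the other windows hold neither. Fixed letters are in capitals, and each site is read 5′ to 3′ on the strand that carries it:
Hspa5 ERSE, chr2:34772025-34772043: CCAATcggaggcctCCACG
Hsp90b1 ERSE, first site, chr10:86705638-86705656: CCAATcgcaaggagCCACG
Hsp90b1 ERSE, second site, chr10:86705533-86705551: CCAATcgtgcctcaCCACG
Calr ERSE, chr8:84847075-84847093: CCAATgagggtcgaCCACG
Canx ERSE, chr11:50325800-50325818: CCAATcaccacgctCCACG
Dnajc3 ERSE, chr14:118937827-118937845: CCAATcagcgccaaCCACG
Creld2 ERSE, chr15:88819520-88819538: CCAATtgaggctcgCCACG
Pdia6 ERSE, chr12:17266491-17266509: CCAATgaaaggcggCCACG
Syvn1 ERSE, chr19:6046532-6046550: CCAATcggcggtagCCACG
Derl3 ERSE, chr10:75893242-75893260: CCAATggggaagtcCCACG
Dnajb11 ERSE-II, chr16:22857852-22857862: ATTGGcCCACG
Herpud1 ERSE-II, chr8:94386377-94386387: ATTGGgCCACG

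The 250 bases before the start are shown for the 2 genes with an ERSE whose population means differed most, Canx and Derl3, with the site in capitals. The range of Derl3 rests on few reads, and no comparison of it passed on the authors' scale. In Derl3 the site lies on the strand opposite the gene, so the window shows its reverse complement:
Canx, chr11:50325674-50325923, minus strand: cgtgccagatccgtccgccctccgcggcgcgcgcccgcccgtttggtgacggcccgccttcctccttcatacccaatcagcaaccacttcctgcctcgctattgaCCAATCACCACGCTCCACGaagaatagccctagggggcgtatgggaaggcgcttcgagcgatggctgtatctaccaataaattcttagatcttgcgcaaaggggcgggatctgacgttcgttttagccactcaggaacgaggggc
Derl3, chr10:75893148-75893397, plus strand: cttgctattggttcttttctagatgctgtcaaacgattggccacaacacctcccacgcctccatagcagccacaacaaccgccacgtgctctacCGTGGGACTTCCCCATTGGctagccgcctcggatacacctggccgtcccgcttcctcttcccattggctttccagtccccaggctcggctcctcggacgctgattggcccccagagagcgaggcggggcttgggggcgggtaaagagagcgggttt
Both windows hold 1 site, and the levels of the 2 genes were far apart, with Canx at 3322 and Derl3 at 7.93 normalised reads per kilobase. Neither element was found in the windows of P4hb, Creb3l3, Edem1, Sel1l and Ddit3, which differed between Negative and Low on both scales. No window was matched for Ern2 and Derl1, which did so too. Of the genes with an element, Calr, Canx, Dnajc3, Syvn1 and Dnajb11 were higher in Negative than in Low on the authors' scale but not at the same total. The same held for Xbp1, Ern1, Edem2, Sdf2l1 and Sec61b, whose windows have neither. Pdia6 and Derl3, with an element, and Ssr1, without, were called lower only at the same total. The part of the elements was not tested. The core of the XBP1 site, TGACGTG, was found in 1 of the 28 windows, that of Hspa5, and in 2.22% of all genes. The ATF4 element TGATGNAA was found in 1, that of Herpud1, and in 4.51% of all genes. The letters CCACG, which are part of both ER stress elements, were found in 24 of the 28 windows and in 35.5% of all genes.

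A second pattern ran across the populations, between the replicates. In each of the 4 populations the library of replicate C had the most Hspa5, Dnajb9, Herpud1, Manf, Ssr3 and Derl2 of its 3 libraries. That was 6 of 35 genes or 17.1%, and 5.77% of all genes had replicate C highest in all 4 populations. Hspa5 (chr2:34771970-34777547), the chaperone BiP that holds the sensors inactive, had 14231 normalised reads in High replicate C against 8498 and 7135 in A and B. It had 20518 in Sublow C against 11613 and 7860, 21070 in Negative C against 12516 and 7205, and 12023 in Low C against 6965 and 6540. Every replicate C value except that of Low thus lay above all A and B values of the 4 populations. Dnajb9, the co-chaperone ERdj4, had 1484 in High C against 749.7 and 915, and 1135 in Sublow C against 393 and 625. It had 1588 in Negative C against 429.8 and 694, and 742 in Low C against 306 and 488. Herpud1, a degradation gene that rises early in ER stress, had 2974 in High C against 1739 and 2060.3, and 3108 in Sublow C against 1037 and 1344. It had 3928 in Negative C against 1084 and 1422, and 2198 in Low C against 993 and 1253. Hspa5 and Herpud1 are given in every library because of this pattern, after their values were seen.

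In a fit with population and replicate letter, chosen after the data were seen, 5 of the 35 genes rose in replicate C relative to the mean of A and B and 0 fell, against 1.79% and 1.82% of all genes. Replicate C was picked from these same values, and A and B were not tested in the same way, so the p-values are descriptive. They treat the libraries of a letter as separate units. If a letter is a single sort or animal, they measure only how alike the difference was over the populations. Herpud1 rose 2.25-fold (log2 difference 1.17 ± 0.14 SE, adjusted p = 0.00483), Dnajb9 2.19-fold (1.13 ± 0.12, adjusted p = 0.00344) and Hspa5 1.98-fold (0.99 ± 0.11, adjusted p = 0.00459). Manf rose 1.73-fold (0.79 ± 0.13, adjusted p = 0.0184) and Ssr3 1.33-fold (0.41 ± 0.08, adjusted p = 0.0258). The same 5 genes passed with edgeR and at the same total. Without the High, Sublow or Negative libraries 3 of the 5 passed (Hspa5, Dnajb9 and Herpud1), and without the Low libraries 0 passed, with adjusted p from 0.0535 to 0.157 and log2 differences of 0.42 to 1.24. None of the 7 sensors and factors and none of the 4 disulfide isomerases passed. Of 145 other ER genes, 8 rose in replicate C and 2 fell, the largest rises being those of Ddit4, a stress-induced inhibitor of mTOR (log2 difference 1.26, adjusted p = 0.0175), and Nfya, a subunit of NF-Y (0.75, adjusted p = 0.0119), both named after their values were seen. Replicate C libraries held 15822864 reads in High, 17046944 in Sublow, 16122814 in Negative and 15576144 in Low, the most of their population in all but Negative, and the part of depth in the result was not tested. What replicate C had in common across the populations is not stated by the labels. In the fit of populations, which has no term for the letter, Hspa5, Dnajb9 and Herpud1 passed in no comparison (adjusted p of the F test 0.491, 0.275 and 0.647 in that order). That spread between letters is part of its error, and within each of the 3 letters Dnajb9 and Herpud1 were higher in High than in Low. With the letter as a block, Dnajb9 and Herpud1 were called higher in High than in Low. Hspa5 was then called higher in Negative than in Low.

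**Figure D5:**
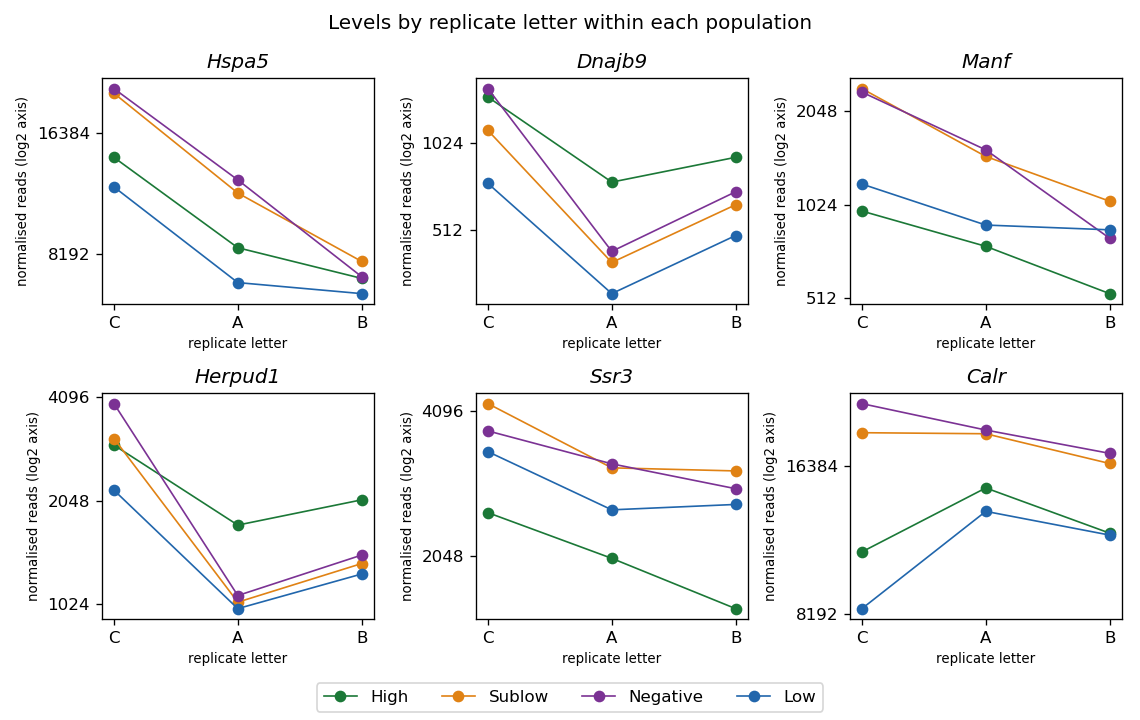
Normalised reads (log2 axis) of 6 ER genes in replicate letters C, A and B of each population, with lines joining the libraries of 1 population. Hspa5, Dnajb9, Manf, Herpud1 and Ssr3 are highest in C in all 4 populations, and Calr, shown for comparison, is highest in C in 2 and lowest in 2.

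The other ER genes followed from 7 lists of 145 genes, all of them tested. Those of transport from the ER to the Golgi were the most uniform, with 22 of 27 higher and 0 lower in Negative than in Low and likewise 22 and 0 in Sublow. Of all genes 26.8% were higher and 30.3% lower in Negative, and 13.3% and 10.7% in Sublow. At the same total 16 were higher and 4 lower in Negative (all genes 14.7% and 48.6%), and 13 higher and 1 lower in Sublow (7.88% and 19.7%). Sec23a, a coat protein of the transport vesicles, averaged 783 ± 32.8 normalised reads in High, 3073 ± 1315 in Sublow, 6599.5 ± 682 in Negative and 847 ± 140.4 in Low, and rose 7.82-fold in Negative relative to Low (log2 difference 2.97 ± 0.26, adjusted p = 5.8e-06). Sec24d, its partner in the coat, rose 7.54-fold (2.92 ± 0.28, adjusted p = 8.89e-06) and Sec16b, which marks the sites where vesicles form, rose 6.04-fold (2.60 ± 0.30, adjusted p = 2.21e-05). These 3 were also called at the same total.

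Targets of the integrated stress response, the arm of PERK and ATF4, moved both ways. Of 17 genes, 5 rose and 8 fell in Negative relative to Low, where 26.8% and 30.3% of all genes did, and at the same total 4 rose and 9 fell, where 14.7% and 48.6% did. The counts between Negative and Low of the folding enzymes and of the other sensors below are likewise to be read against these shares. None of the 3 lists stands as a result by its count in that comparison. Trib3, a pseudokinase induced by CHOP, averaged 61.1 ± 5.51 normalised reads in High, 42.2 ± 20.3 in Sublow, 120.1 ± 30.5 in Negative and 16.4 ± 8.77 in Low, and rose 7.33-fold in Negative relative to Low (log2 difference 2.87 ± 0.42, adjusted p = 0.000109). The serine synthesis genes Phgdh and Psat1 fell in Negative relative to Low, Phgdh 13.7-fold (-3.78 ± 0.69, adjusted p = 0.000511) and Psat1 6.16-fold (-2.62 ± 0.45, adjusted p = 0.000338). Psat1 was 13.6-fold higher in High than in Negative (3.76 ± 0.45, adjusted p = 1.5e-05), while Phgdh averaged 21.1 ± 12.7 in High, 143 ± 78.3 in Sublow, 26.6 ± 21.9 in Negative and 286 ± 17.5 in Low.

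Among 32 other folding and redox enzymes, 10 rose and 12 fell in Negative relative to Low, against 26.8% and 30.3% of all genes. At the same total 3 rose and 17 fell, against 14.7% and 48.6%. In High relative to Sublow 6 rose and 15 fell, against 26.7% and 25.3%. At the same total 8 rose and 13 fell, against 32.8% and 19.1%. Agr2, the isomerase that goblet cells use for mucin, averaged 1414 ± 365 normalised reads in High, 8517 ± 4868 in Sublow, 1016 ± 465 in Negative and 4853 ± 1193 in Low, so that its means, like those of Ern2, were higher in Sublow and Low than in High and Negative. Agr2 was 8.26-fold higher in Sublow than in Negative (log2 difference 3.05 ± 0.41, adjusted p = 0.00129). Fkbp11, a prolyl isomerase of secretory cells, averaged 11.3 ± 1.26 in High, 131 ± 60 in Sublow, 30 ± 9.17 in Negative and 63.1 ± 20 in Low. Agr3 and the selenoprotein Selenom were highest in High, where Agr3 was 37.0-fold higher than in Negative (5.21 ± 0.67, adjusted p = 2.69e-05) and Selenom 16.2-fold (4.02 ± 0.30, adjusted p = 2.62e-07). At the same total Selenom was called higher in High than in Low (log2 difference 1.81, adjusted p = 0.000872, limma). Agr3 was not (1.41, adjusted p = 0.104).

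Of 15 other sensors and factors, 4 rose and 4 fell in Negative relative to Low, near the 26.8% and 30.3% of all genes. At the same total 3 rose and 9 fell, against 14.7% and 48.6%. Creb3l1 and Creb3l4 are membrane-bound relatives of Creb3l3. Creb3l1 averaged 739 ± 59.2 normalised reads in High, 1774 ± 513 in Sublow, 293 ± 95.7 in Negative and 1191 ± 435 in Low (SD, n = 3 each). Creb3l1 fell 4.02-fold in Negative relative to Low (log2 difference -2.01 ± 0.31, adjusted p = 0.000161) and Creb3l4 3.33-fold (-1.73 ± 0.27, adjusted p = 0.000181). Wfs1, an ER calcium regulator, rose 5.75-fold in Negative relative to Low (2.52 ± 0.37, adjusted p = 0.000104). Eif2ak3, the sensor PERK, averaged 843 ± 85.2 in High, 1197 ± 292 in Sublow, 1018 ± 247 in Negative and 865 ± 205 in Low, and passed in no comparison (adjusted p of the F test = 0.193). Bhlha15, a factor of secretory cells, fell 2.63-fold in High relative to Sublow (-1.40 ± 0.33, adjusted p = 0.00383), and Atf6b, the paralog of Atf6, averaged 556 ± 68.7 in High, 485 ± 41.9 in Sublow, 398 ± 45.2 in Negative and 490.1 ± 119.9 in Low.

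The counts of the remaining lists are given beside the shares of all genes. Of 21 other degradation genes, 13 rose and 1 fell in Negative relative to Low (all genes 26.8% and 30.3%). At the same total 4 rose and 4 fell (14.7% and 48.6%). Selenos rose 2.14-fold in Negative relative to Low (log2 difference 1.10 ± 0.17, adjusted p = 0.000195) and Os9, a lectin of the degradation complex, 2.38-fold (1.25 ± 0.17, adjusted p = 6.96e-05), both also called at the same total. Ube2j1, a ubiquitin-conjugating enzyme of the ER membrane, was 2.63-fold higher in High than in Low (1.40 ± 0.14, adjusted p = 1.54e-05). Of 12 oligosaccharyltransferase genes, 1 rose and 7 fell in High relative to Sublow (all genes 26.7% and 25.3%). At the same total 1 rose and 5 fell (32.8% and 19.1%). Tusc3 was the one that rose, 6.88-fold (2.78 ± 0.28, adjusted p = 4.71e-06), whereas Ostc fell 2.16-fold (-1.11 ± 0.15, adjusted p = 6.99e-05) and Krtcap2 2.26-fold (-1.18 ± 0.23, adjusted p = 0.000922). Of 21 other translocon and signal recognition genes, 6 rose and 2 fell in Negative relative to Low (all genes 26.8% and 30.3%). At the same total 1 rose and 9 fell (14.7% and 48.6%). Tram2 rose 2.91-fold in Negative relative to Low (1.54 ± 0.26, adjusted p = 0.000323), while the signal peptidase subunit Sec11c fell 1.54-fold (-0.62 ± 0.21, adjusted p = 0.022) and Srp19 fell 1.47-fold (-0.55 ± 0.21, adjusted p = 0.0383).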

How the data were processed

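Total RNA of sorted cells was depleted of ribosomal RNA, converted to single-end libraries with Clontech's SMARTer Pico v2 kit, per the labels' protocols. The authors deposited 1 table with 1 signal value per gene symbol and library. Dividing each library's values by its smallest step gave whole numbers for 100% of them (tolerance 0.01), so the deposited signal is a read count divided by a size factor. Which aligner, counter, genome build, annotation and strand setting were used is not given in the sources used here. Of symbols, the table listed 30265 symbols, of which 2416 were 0 in every library.

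Values were tested as log2(value + 1) with limma 3.58.1 (trend, 1 fit of 12 libraries, R 4.3.3) over the 16577 genes that reached 10 normalised reads in 3 or more libraries. P-values were adjusted by Benjamini-Hochberg over all genes in each comparison and called below 0.05. Differences are on that log2 scale, which understates changes of low genes. Alternatives were edgeR 4.0.16 (quasi-likelihood, TMM) and DESeq2 1.42.0 on the recovered reads, the replicate letter as a block, pseudocounts of 0.5 and 5, scaling to the same total, no filter, a filter on a mean of 50, a fit of 6 libraries alone, a fit without Sublow, and leaving out each library. No library was left out of the reported tests.

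The members and lists were chosen with earlier results of these data known. Values in every library are given for the 7 sensors and factors and for the 12 other members with the widest range of population means. Of each other list, up to 3 genes with the widest range that passed the F test are named, plus Agr2, Eif2ak3, Bhlha15, Atf6b and Creb3l1. The comparison of replicate letters was added after the data were seen. Gene positions and lengths are from GENCODE M21 (GRCm38) and promoters from RefSeq (GRCm38.p6). With 3 libraries for each population and 11630042 to 17046944 reads for each library, precision is set by the spread between libraries rather than by counting, except for genes near the floor of 3 reads.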

Additional observations from a re-analysis of the deposited data

How the results depend on the processing

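Of the 87 calls of ER genes, 49 were lost at the same total (47 by the threshold and 2 by sign: Ern1 with -0.0835 and Sec61a1 with -0.0433 for Negative–Low). The loss was 17 in the fit of 6 libraries, 10 without a filter, 2 with edgeR, 1 with DESeq2 and 1 with a pseudocount of 0.5, and 0 with a pseudocount of 5 or a mean of at least 50. Leaving out 1 library lost 5 to 13.

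At the same total the ER genes called were 4 higher for Sublow–Low, 6 higher and 4 lower for Negative–Low, 6 lower for High–Negative, 3 higher and 1 lower for Sublow–Negative, 10 lower for High–Sublow, and 12 by the F test, with 1 lowest in High and 1 highest in Negative. All genes called were 1306 higher and 3263 lower for Sublow–Low, 2441 and 8049 for Negative–Low, 7423 and 2588 for High–Negative, and 3829 and 610 for Sublow–Negative. Only the scaling differed from the reported fit, and it moved the median gene by up to 0.55 on the log2 scale. Why the totals of normalised reads differ between the populations was not tested.

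In the fit of 6 libraries alone, ER genes called were 6 higher and 6 lower for High–Low, 8 higher for Sublow–Low, and 0 higher and 0 lower for Sublow–Negative, with 41 and 5 of all genes there and 1251 higher for Sublow–Low. This fit has fewer libraries to estimate the spread. Without Sublow, 5 ER genes were higher for High–Low. For Sublow–Negative, edgeR called 1309 of all genes lower and DESeq2 called 2 ER genes higher. 1 gene was lowest in Low with edgeR, with DESeq2 and at a mean of at least 50. The cause of these last changes was not tested.

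With the replicate letter as a block, no call was lost and 29 were gained: 7 ER genes were higher and 5 lower for High–Low, 3 were higher for Sublow–Negative, 5 were lowest in High and 3 lowest in Low. Among the gains were Dnajb9 (1.06 on the log2 scale, adjusted p = 0.000262) and Herpud1 (0.65, adjusted p = 0.0119) for High–Low and Hspa5 (0.60, adjusted p = 0.00445) for Negative–Low. Samples with the same letter correlated at 0.0521 to 0.341 in their deviations from the population means (18 pairs, mean 0.156). All of these were positive, and 12 of 12 libraries correlated best with their own letter, so the libraries shared structure by letter. The reported fit left the letter out because not every pair was above 0.1. Its error therefore holds the spread between letters, and it makes fewer calls than the fit with the block.

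Leaving out 1 library, ER genes called ranged over 2 to 5 higher for High–Low, 1 to 2 higher for High–Negative, 9 to 14 higher for Sublow–Low, 1 to 4 higher and 0 to 5 lower for Sublow–Negative, and 1 to 2 lower for Negative–Low. Those highest in High ranged over 1 to 2, highest in Negative 0 to 5, lowest in High 1 to 4, and lowest in Low 0 to 2. Over all genes, the ranges were 1342 to 2767 higher and 1069 to 2836 lower for Sublow–Low, and 1404 to 3242 higher and 325 to 2997 lower for Sublow–Negative. The rise in replicate C was called for 3 ER genes without High, without Sublow or without Negative, and for 0 without Low. Depth limits only Derl3, at 5.28 to 28.6 normalised reads.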
